A study of Mus musculus with 8 samples.

Results

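The genes described here are Pdgfra, Pdgfrb, Aplnr, Cxcr4 and Kit, which encode cell surface receptors whose proteins are used to sort mesoderm and progenitor cells. They were chosen by symbol, and all 5 are among the 13540 genes of the deposited RPKM table (reads per kilobase of gene model per 1000000 reads). Mouse 129/Ola embryonic stem cells were driven towards heart muscle, and poly(A) RNA was sequenced in unsorted cultures at day 0 (ESC, embryonic stem cells), day 4 (MES, mesodermal cells), day 5.3 (CP, cardiac precursors) and day 10 (CM, cardiomyocytes). All later cultures began as aggregates in serum-free medium, were aggregated again in the presence of VEGF, BMP4 and Activin A, and were plated in bFGF, FGF10 and VEGF. No genetic change is named in the labels for any stage. Each stage has 2 libraries but a single column of values, so no difference below has a replicate check, an SD or a p-value. As these are bulk cultures, fewer cells of a type and less RNA per cell cannot be told apart.

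PDGFRA and PDGFRB are receptor tyrosine kinases for platelet-derived growth factors; PDGFRA, paired with the VEGF receptor KDR, is used to sort cardiac mesoderm, while PDGFRB is known from pericytes and smooth muscle. APLNR is a G protein-coupled receptor for apelin and ELABELA that marks mesoderm leaving the primitive streak, and CXCR4 is the G protein-coupled receptor for the chemokine CXCL12, known from migrating mesoderm and from definitive endoderm. KIT, the receptor for stem cell factor and a kinase of the same class as the PDGF receptors, is known from blood progenitors, germ cells and some pluripotent cells, and is sorted with CXCR4 as an endoderm marker.

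RefSeq promoter windows on GRCm38.p6 were taken for 3 of the 5 genes, at the first listed start site of each: Pdgfra, Cxcr4 and Kit. They are shown because Pdgfra and Kit are neighbours on chromosome 5 with unlike courses, and because Pdgfra and Cxcr4, both low in ESC and high in MES, differ in their CpG content. The sequences run 5′ to 3′ and begin 250 bases before the RefSeq start. That of Kit stops at 179 bases, where the first annotated exon of another transcript begins. Capitals mark CpG dinucleotides. The windows are chr5:75152001-75152250 on the plus strand for Pdgfra, chr1:128592300-128592549 on the minus strand for Cxcr4 and chr5:75574737-75574915 on the plus strand for Kit.
Pdgfra: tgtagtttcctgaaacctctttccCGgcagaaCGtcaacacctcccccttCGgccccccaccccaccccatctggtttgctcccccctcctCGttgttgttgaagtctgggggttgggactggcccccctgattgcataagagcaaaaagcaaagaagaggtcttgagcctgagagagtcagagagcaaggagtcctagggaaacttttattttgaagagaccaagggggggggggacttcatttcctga
Cxcr4: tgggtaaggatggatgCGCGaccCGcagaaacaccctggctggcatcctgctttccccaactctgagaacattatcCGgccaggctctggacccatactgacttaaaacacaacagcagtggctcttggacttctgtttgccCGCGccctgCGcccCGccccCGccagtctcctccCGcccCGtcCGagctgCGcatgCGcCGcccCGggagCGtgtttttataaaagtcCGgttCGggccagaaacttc
Kit: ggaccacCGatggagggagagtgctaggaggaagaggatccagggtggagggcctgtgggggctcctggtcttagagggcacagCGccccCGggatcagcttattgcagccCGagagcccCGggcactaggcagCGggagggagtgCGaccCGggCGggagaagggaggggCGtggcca

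Over the full 250 bases the promoter of Pdgfra held 4 CpGs, that of Cxcr4 19 and that of Kit 17, against a median of 6 over 32851 promoter windows of this length. As many CpGs as in Cxcr4 or more were found in 19.7% of all windows, as many as in Kit or more in 23.5%, and as few as in Pdgfra or fewer in 44.4%. Short motifs were searched on both strands over the full windows. The GATA factor motif AGATAA is present in 9.99% of all windows of this length. The T-box factor motif AGGTGTGA is present in 1.12% of them. The motif of LEF and TCF factors, CTTTGAT, is present in 3.21%. None of these motifs was found in the windows of the 3 receptors, so no overlap between motifs arose.

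The depth behind the values, worked out from the whole reads of low genes, ranged from 62.0 M reads in MES to 88.5 M in CM (M, 1000000). The whole reads behind each receptor value gave gene model lengths of 6497 bases for Pdgfra, 5478 for Pdgfrb, 3537 for Aplnr, 1808 for Cxcr4 and 5831 for Kit. All intervals below are exact 95% intervals from these reads. They cover counting error only, not the spread between cultures. Pdgfra shared 0.295% of its 32-base words with transcripts of other genes and the other 4 receptors 0%, and no word was shared between receptors.

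Pdgfra was low in ESC, high in MES and CP, and intermediate in CM. It stood at 0.206 RPKM in ESC (101 reads), 48.3 RPKM in MES, 54.4 RPKM in CP and 10.3 RPKM in CM. MES lay 234-fold above ESC (193 to 288), CP 1.13-fold above MES (1.10 to 1.15) and CP 5.26-fold above CM (5.11 to 5.41). MES and CP are thus close neighbours in its order, and whether cultures of 1 stage differ by as much cannot be read from single columns.

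Pdgfrb had its lowest value in ESC and its highest in CM, with each stage above the stage before. It stood at 1.45 RPKM in ESC, 4.88 RPKM in MES, 7.73 RPKM in CP and 14.2 RPKM in CM. MES lay 3.35-fold above ESC (3.05 to 3.69), CP 1.59-fold above MES (1.49 to 1.69) and CM 1.84-fold above CP (1.76 to 1.93). The label of a mesoderm receptor does not describe this course, since MES was the second lowest of its 4 values. Pdgfra exceeded Pdgfrb 9.91-fold in MES and 7.03-fold in CP on the RPKM scale, whereas Pdgfrb exceeded Pdgfra 7.05-fold in ESC and 1.38-fold in CM.

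Aplnr had the highest single value of the 5 receptors. It stood at 0.0788 RPKM in ESC (21 reads), 84.1 RPKM in MES, 42.9 RPKM in CP and 0.466 RPKM in CM (146 reads). MES lay 1067-fold above ESC (698 to 1724), and MES lay 1.96-fold above CP (1.91 to 2.01). CP lay 92.1-fold above CM (78.2 to 109.2), and CM 5.92-fold above ESC (3.73 to 9.85). Its level in MES was number 478 from the top of 13540 genes, and in CM number 12262.

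Cxcr4 was high at day 4 and low at the other 3 stages. It stood at 0.646 RPKM in ESC (88 reads), 56.9 RPKM in MES, 3.77 RPKM in CP and 1.65 RPKM in CM. MES lay 88.1-fold above ESC (71.4 to 110.04), 15.1-fold above CP (13.7 to 16.7) and 34.5-fold above CM (30.5 to 39.2). Between days 4 and 5.3 Cxcr4 therefore differed 15.1-fold, where Aplnr differed 1.96-fold and Pdgfra 1.13-fold in the opposite direction.

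Kit was high in ESC and CP, and low in MES. It stood at 16.1 RPKM in ESC, 3.74 RPKM in MES, 15.3 RPKM in CP and 6.26 RPKM in CM. ESC lay 4.31-fold above MES (4.06 to 4.57), CP 4.09-fold above MES (3.86 to 4.34) and CP 2.45-fold above CM (2.34 to 2.55). ESC and CP are the closest pair in its order, 1.05-fold apart (1.02 to 1.09), beyond counting error but with no measure of the spread between cultures. Among the 5 receptors Kit alone had its lowest value in MES, so a label of mesoderm receptor does not describe it in these cultures either.

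**Figure D1:**
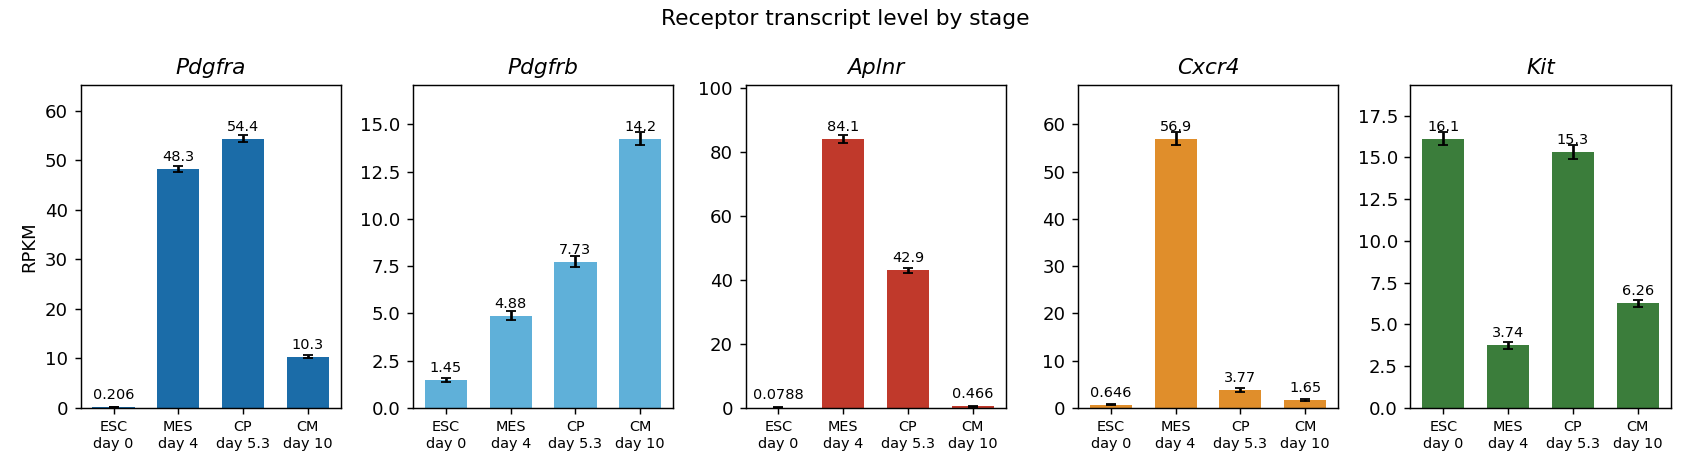
RPKM of each receptor gene (y axis, linear, a separate scale per gene) at the 4 stages (x axis); bars are the single deposited values and error bars exact 95% Poisson intervals of the recovered reads. Aplnr and Cxcr4 are highest in MES at 84.1 and 56.9 RPKM, Pdgfra in CP at 54.4 RPKM, Pdgfrb in CM at 14.2 RPKM, and Kit is lowest in MES at 3.74 RPKM.

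The makeup of the receptor set differed between stages. The 5 values summed to 18.5 RPKM in ESC, 198 RPKM in MES, 124 RPKM in CP and 33.0 RPKM in CM. Kit made up 87.1% of the sum in ESC and 1.89% in MES. In MES the sum was 42.5% Aplnr, 28.8% Cxcr4 and 24.4% Pdgfra, and in CP it was 43.8% Pdgfra, 34.6% Aplnr and 12.3% Kit. In CM Pdgfrb held the largest share at 43.2%, followed by Pdgfra at 31.4%, with Aplnr at 1.41%.

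Differences were also counted on the log2(RPKM + 1) scale, which understates those of low genes, with a minimum of 2-fold. The 3 comparisons share stages, since MES and CP each enter 2 of them. From ESC to MES, 4 receptors were at least 2-fold higher, against 11.1% of all genes, and 1 was lower, against 11.2%. The log2 differences were 6.30 for Aplnr, 5.35 for Pdgfra, 5.14 for Cxcr4, 1.26 for Pdgfrb and -1.85 for Kit, beside a median of 0.05 over all genes. Thus none of the 5 stayed within 2-fold at this step.

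From MES to CP, 1 receptor was at least 2-fold higher (Kit, 1.78), against 8.91% of all genes, and 1 was lower (Cxcr4, -3.60), against 3.91%. Pdgfra at 0.17 and Pdgfrb at 0.57 were under 2-fold, and Aplnr at -0.95 lay just under the threshold. From CP to CM, 0 receptors were at least 2-fold higher, against 11.3% of all genes, and 3 were lower, against 12.8%. The lower genes were Aplnr at -4.90, Pdgfra at -2.29 and Kit at -1.17, while Cxcr4 stood at -0.85 and Pdgfrb at 0.80, beside a median of -0.15 over all genes. With a pseudocount of 0.1, Cxcr4 passed the same threshold at -1.15.

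**Figure D2:**
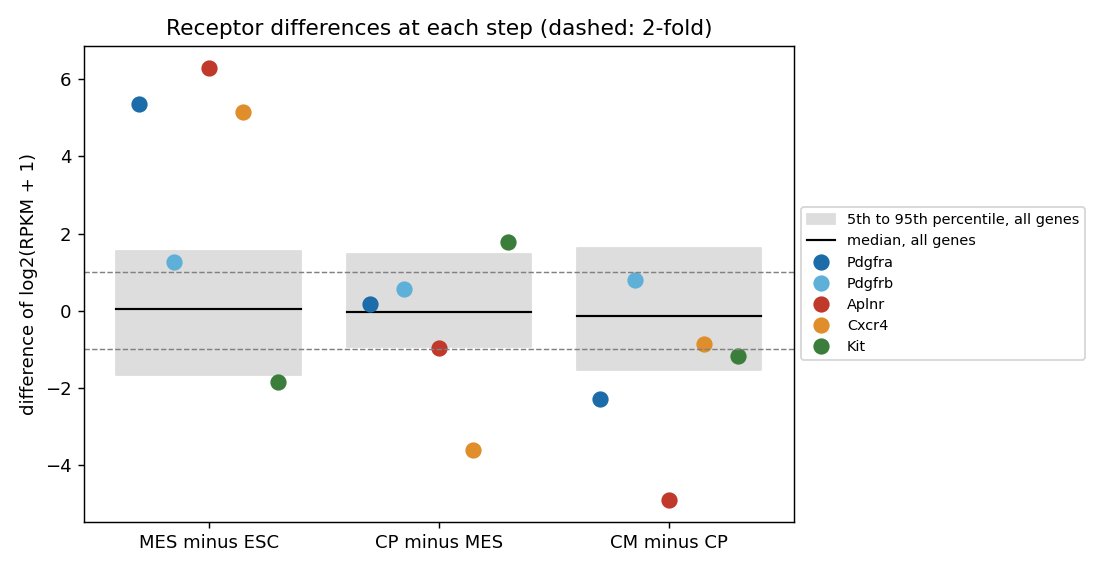
Difference of log2(RPKM + 1) between adjacent stages (y axis) for the 5 receptors (points) in each comparison (x axis); grey bars span the 5th to 95th percentile of all 13540 genes, black lines their median and dashed lines 2-fold. Aplnr lies at 6.30 from ESC to MES and at -4.90 from CP to CM, and Kit lies on the opposite side of 0 from Aplnr at the first 2 steps.

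Classed by these 3 steps, Pdgfra and Aplnr fell in a class of 229 genes (1.69% of the table) that were higher in MES than in ESC, under 2-fold from MES to CP, and lower in CM. The class of Cxcr4, higher in MES, lower in CP and under 2-fold from CP to CM, held 165 genes (1.22%). This class of Cxcr4 depends on the pseudocount of 1. By RPKM alone its CP value lay 2.29-fold above CM (1.96 to 2.67), and with a pseudocount of 0.1 it left the class. Pdgfrb shared its class, higher in MES and under 2-fold at both later steps, with 807 genes in all (5.96%). Kit belonged to the smallest of these classes, 39 genes (0.288%) that were lower in MES, higher in CP and lower again in CM.

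The ligand genes of these receptors did not follow a common course, and 6 of 8 listed were in the table. Pdgfa, which encodes a ligand that binds PDGFRA, stood at 34.0 RPKM in ESC, 9.25 RPKM in MES, 6.61 RPKM in CP and 15.5 RPKM in CM. Its lowest value was thus in CP, where Pdgfra was highest. Pdgfb, whose product binds both PDGF receptors, stood at 5.39, 0.924, 9.77 and 13.1 RPKM in the same order. Pdgfc, another PDGFRA ligand gene, stood at 6.29, 0.532, 0.428 and 7.26 RPKM. Summed over the 3 genes, PDGF ligand RNA was lowest in MES at 10.7 RPKM, against 45.6 RPKM in ESC, 16.8 RPKM in CP and 35.9 RPKM in CM.

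Apln, the apelin gene, had 2 high stages, MES and CM. It stood at 0.599 RPKM in ESC, 6.22 RPKM in MES, 0.412 RPKM in CP and 10.6 RPKM in CM. Receptor RNA exceeded ligand RNA 13.5-fold in MES and 104-fold in CP, whereas Apln exceeded Aplnr 22.7-fold in CM. Cxcl12 stood at 0.547, 0.590, 2.0711 and 44.0 RPKM over the 4 stages, so its highest value was in CM, where Cxcr4 was at 1.65 RPKM. Cxcr4 exceeded Cxcl12 96.5-fold in MES, and Cxcl12 exceeded Cxcr4 26.7-fold in CM. Kitl, which encodes stem cell factor, stood at 0.701, 4.07, 3.85 and 5.74 RPKM, with MES and CP 1.06-fold apart, within counting error (0.982 to 1.14).

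**Figure D3:**
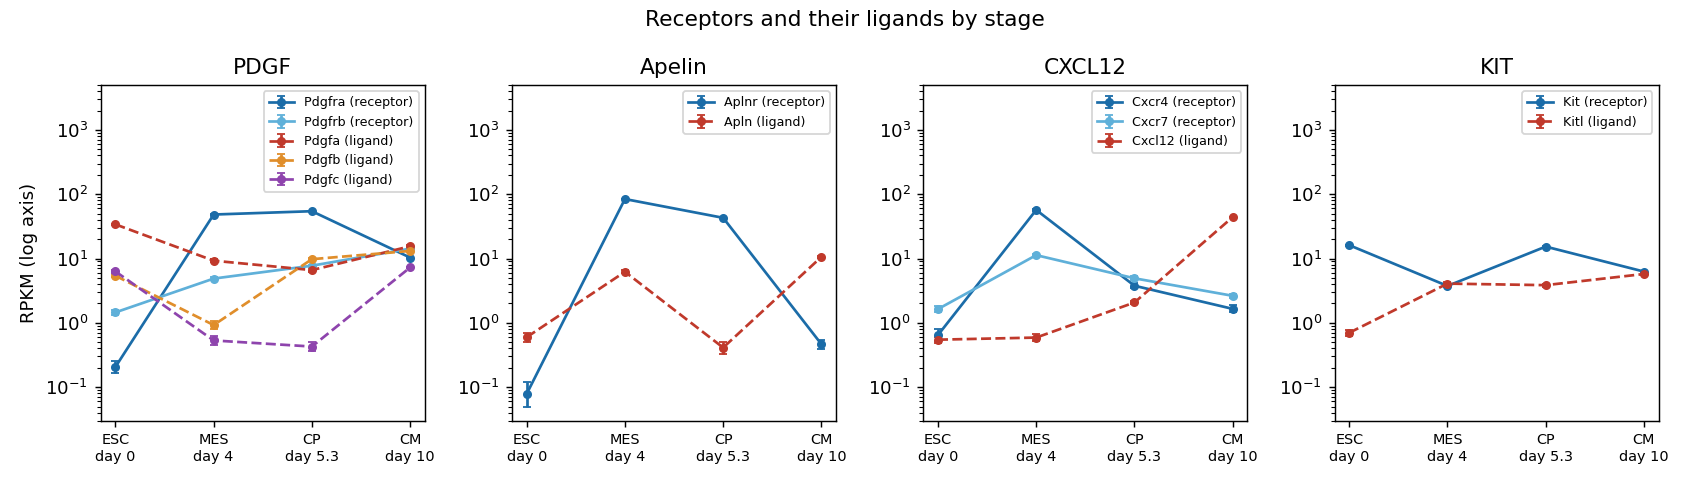
RPKM on a log axis (y) at the 4 stages (x) for receptors (solid lines) and their ligands (dashed lines), with exact 95% Poisson intervals of the recovered reads; 1 panel per ligand system. Cxcr4 is at 56.9 RPKM in MES and Cxcl12 at 44.0 RPKM in CM, and Pdgfa is lowest in CP at 6.61 RPKM.

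By counts, 2 of the 6 ligand genes were higher by 2-fold or more in MES than in ESC, against 11.1% of all genes, and 3 were lower, against 11.2% (median log2 difference -0.85, beside 0.05 over all genes). From MES to CP, 1 was higher and 1 lower (median -0.08, beside -0.03), against 8.91% and 3.91%. From CP to CM, 4 were higher and 0 lower (median 1.82, beside -0.15), against 11.3% and 12.8%. The higher genes were Cxcl12 at 3.87, Apln at 3.04, Pdgfc at 2.53 and Pdgfa at 1.12. Pdgfd and Apela were not analysed here.

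Of 14 relatives and co-receptors, 9 were in the table. Cxcr7 (now Ackr3), which encodes a scavenging receptor for CXCL12, was highest in MES like Cxcr4, at 1.64 RPKM in ESC, 11.3 RPKM in MES, 4.93 RPKM in CP and 2.63 RPKM in CM. Cxcr4 exceeded Cxcr7 5.05-fold in MES, but Cxcr7 exceeded Cxcr4 2.53-fold in ESC, 1.31-fold in CP and 1.60-fold in CM. The receptor tyrosine kinase genes Flt1 and Flt4, which bind VEGF family ligands, had 0.844 and 1.06 RPKM in MES against 7.17 and 9.03 in CP. Nrp1, a co-receptor of VEGF, went from 0.970 RPKM in ESC to 57.4 RPKM in MES, 66.7 RPKM in CP and 49.7 RPKM in CM.

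Among those 9 relatives 3 were higher and 1 lower by 2-fold or more from ESC to MES (median 0.23), against 11.1% and 11.2% of all genes. In CP 4 were higher than in MES and 1 lower (median 0.23), against 8.91% and 3.91%. In CM 2 were higher than in CP and 1 lower (median -0.42), against 11.3% and 12.8%, so that the lower share was close to that of the whole table. Itgb3, an integrin subunit gene, was the lower gene at the first step (1.18 to 0.0801 RPKM) and had 8.47 RPKM in CP against 24.1 in CM. Cspg4, which encodes the pericyte proteoglycan NG2, was listed with 0.293 RPKM for CP and with 23.8 RPKM for CM, a log2 difference of 4.26, where Pdgfrb differed by 0.80. Csf1r and Flt3, kinases of the class of Kit, were not analysed here.

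Signal transducers below the receptors differed by 2-fold or more about as often as genes of the whole table did. All 29 listed genes were measured. From ESC to MES 3 were higher and 3 lower (median 0.38), against 11.1% and 11.2% of all genes. In CP 3 were higher than in MES and 0 lower (median 0.23), against 8.91% and 3.91%. In CM 2 were higher than in CP and 5 lower (median -0.24), against 11.3% and 12.8%. Gnai2, the G protein subunit to which CXCR4 and APLNR couple, stood at 110 RPKM in ESC, 199 RPKM in MES, 269 RPKM in CP and 161 RPKM in CM. From ESC to MES, Rgs5, a regulator of G protein signalling, was higher (0.0613 to 13.5 RPKM), as was the beta-arrestin gene Arrb1 (5.44 to 21.1 RPKM). The adaptor gene Gab1 was lower (93.1 to 13.8 RPKM), as was the PI3-kinase gene Pik3cb (12.0 to 1.51 RPKM). From MES to CP the 3 higher genes were Rgs4, Stat3 and Stat5b, with Rgs4 at 0.349 and 8.95 RPKM and then 0.346 RPKM in CM. From CP to CM 5 genes were lower, among them Rgs4, Rgs5 (25.3 to 2.78 RPKM) and Grk6, a receptor kinase (31.8 to 7.87 RPKM), and 2 were higher, including Stat3 (7.20 to 21.8 RPKM).

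On chromosome 5, Pdgfra, Kit and Kdr follow one another with no other protein-coding gene between them in the RefSeq annotation. In MES the middle gene, Kit, was at its lowest value while both flanks were high, and in CP all 3 were high. Kdr stood at 0.365 RPKM in ESC, 63.2 RPKM in MES, 53.4 RPKM in CP and 21.8 RPKM in CM, so Kdr was 173-fold and Pdgfra 234-fold higher in MES than in ESC, where Kit was 4.31-fold lower. From CP to CM all 3 were lower, with log2 differences of -2.29 for Pdgfra, -1.17 for Kit and -1.26 for Kdr. Of a list of 11 genes around this locus, Pdgfra, Kit and Kdr included, 10 were measured. From ESC to MES 2 were higher (Pdgfra and Kdr, against 11.1% of all genes) and 1 lower (Kit, against 11.2%), so 3 were 2-fold apart, and 5 with a pseudocount of 0.1. In CP 1 was higher than in MES (Kit) and 0 lower, against 8.91% and 3.91%. In CM 0 were higher than in CP and 4 lower, against 11.3% and 12.8%, namely these 3 and Tmem165 (35.4 to 16.9 RPKM). Chic2, on the far side of Pdgfra, stood at 15.2, 21.3, 22.1 and 18.5 RPKM, and Srd5a3, next after Kdr, at 2.28, 3.15, 3.49 and 1.91 RPKM.

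**Figure D4:**
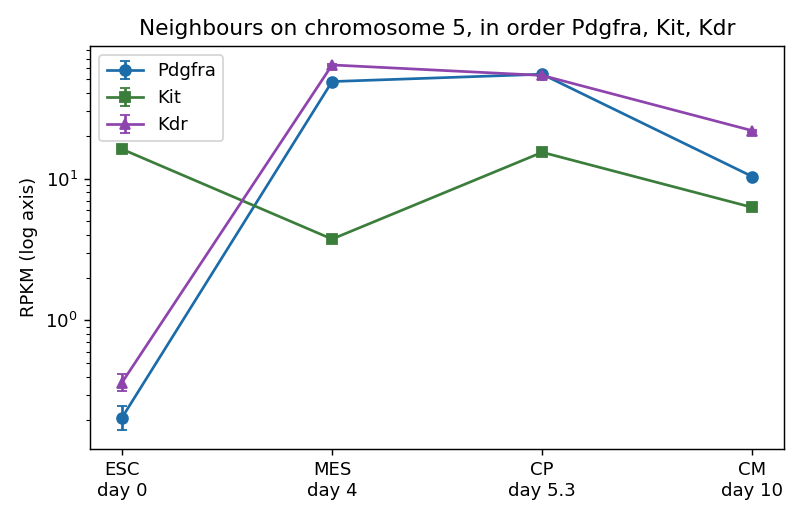
RPKM on a log axis (y) at the 4 stages (x) for 3 adjacent genes of chromosome 5, with exact 95% Poisson intervals of the recovered reads. Pdgfra and Kdr are at 48.3 and 63.2 RPKM in MES, where Kit is at 3.74 RPKM.

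The protein-coding neighbours of the other receptors that are in the table were mostly close in ESC and MES. Beside Cxcr4, the aminoacyl-tRNA synthetase gene Dars had 61.4 RPKM in ESC against 58.3 in MES, and Mcm6, a replication licensing gene, 129 against 125. Beside Aplnr, Tnks1bp1 had 15.5 RPKM in ESC against 20.1 in MES, and Ssrp1, a histone chaperone gene, 125 against 132. These genes differed by under 2-fold at a step where Cxcr4 differed 88.1-fold and Aplnr 1067-fold. From CP to CM, where Cxcr4 (-0.85) and Aplnr (-4.90) were lower, Mcm6 (-2.97) and Ssrp1 (-1.15) were lower too, while Dars (-0.05) and Tnks1bp1 (-0.25) were under 2-fold. Beside Pdgfrb, Hmgxb3 had 13.7 RPKM in ESC against 16.4 in MES, and Cdx1, a homeobox gene, 3.32 against 0.520, lower where Pdgfrb was higher.

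Likeness of course was measured over the 4 stage values as the Euclidean distance of log2(RPKM + 1), centred on each gene's mean, and is a description of 4 points that share stages and depth. Genes named only by a clone or gene-model number were left out of the ranking. Of the remaining genes, the closest to Pdgfra was its neighbour Kdr (distance 0.77), followed by Wnt2 (0.89) and Crb2 (1.06). Closest to Pdgfrb were Ccng2 (0.06), Mapkapk2 (0.11) and Dyrk2 (0.11). Closest to Aplnr were Cfc1 (1.38), Cyp26a1 (1.44) and Hoxb1 (1.55), with Cfc1 at 54.8 RPKM in MES, 49.2 in CP and 2.69 in CM. Closest to Cxcr4 were Six2 (0.97), Fgf3 (0.97) and Greb1 (1.03), with Six2 at 0.212, 30.6, 3.46 and 0.0125 RPKM. Closest to Kit were Prex2 (0.29), Zfp462 (0.32) and Rec8 (0.36), with Zfp462 at 22.9, 3.92, 17.3 and 7.19 RPKM. Among the receptors themselves, Pdgfra and Aplnr were the closest pair (2.77), and Aplnr and Kit the farthest (6.36). Even so, 177 of the ranked genes lay closer to Pdgfra than Aplnr did, and 24 lay closer to Aplnr than Pdgfra did.

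Other surface markers used in sorting were higher or lower in MES without a common direction. Of 25 such genes 24 were measured. By 2-fold or more, 5 were higher and 8 lower from ESC to MES (median -0.08), against 11.1% and 11.2% of all genes. From MES to CP 7 were higher and 3 lower (median 0.34), against 8.91% and 3.91%, and from CP to CM 7 were higher and 8 lower (median -0.20), against 11.3% and 12.8%. Cd24a, a surface glycoprotein gene, had 15.4 RPKM in ESC and 195 in MES. Pecam1 and Cd9, surface genes of pluripotent and other cells, went from 16.2 to 0.391 RPKM and from 41.4 to 4.86 RPKM. Pecam1 then stood at 24.9 RPKM in CP, high on either side of MES as Kit was. The epithelial genes Cdh1 and Epcam had 31.5 and 26.3 RPKM in MES, then 9.30 and 9.49 in CP, then 0.217 and 0.481 in CM. Vcam1, used to sort cardiac cells, had 0.866 RPKM in CP against 13.1 in CM.

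Marker genes were set beside the stage labels, and markers of other cell types moved with some receptors. The marker lists were chosen with earlier results of these data known, so their counts are no independent check of the labels. The counts of markers below use the same 2-fold minimum, so the shares of all genes given above (11.1% higher and 11.2% lower in MES, 8.91% and 3.91% in CP, 11.3% and 12.8% in CM) apply to them. All 14 markers of primitive streak and early mesoderm were at least 2-fold higher in MES than in ESC (summed level 15.6 to 840 RPKM, median 4.36), and 13 were lower in CP (sum 144 RPKM), with Msgn1 at 0 in CP and CM. All 9 pluripotency markers were lower in MES (sum 2110.2 to 96.0 RPKM). Of 9 cardiomyocyte markers 8 were higher in CP than in MES (sum 11.04 to 1102 RPKM) and 9 in CM than in CP (sum 9493 RPKM).

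Beside Cxcr4 and Kit, endoderm markers were measured because both proteins also mark endoderm. Of 9 endoderm markers measured, 5 were higher in MES and 0 lower, led by Cer1 (47.9 RPKM in MES), Gata6 (28.7 RPKM in MES), Sox17 (9.34) and Foxa2 (6.88), with Ttr listed at 0 in ESC and Cer1 at 0 in ESC and CM. The summed level was 260 RPKM in ESC, 234 RPKM in MES, 146 RPKM in CP and 83.8 RPKM in CM. The first 2 sums were mostly Trh (256 and 130.2 RPKM), and the last 2 mostly Gata6 (99.7 and 75.9 RPKM). The sums thus followed single genes, and the median of the 9 markers was 0.152, 6.88, 3.67 and 0.166 RPKM over the 4 stages. From CP to CM 0 were higher and 6 lower. From MES to CP, where Cxcr4 was lower, 4 were higher and 4 lower. Among the lower genes were Cer1 (47.9 to 0.0791 RPKM), Trh (130.2 to 3.67 RPKM) and Foxa2 (6.88 to 0.561 RPKM). The higher genes were Gata6 (28.7 to 99.7 RPKM), Sox7 (1.04 to 15.3 RPKM), Hhex (4.27 to 12.3 RPKM) and Ttr (0.158 to 1.91 RPKM). Sox17 had 9.34 and 11.5 RPKM. The part of endoderm cells in the values of Cxcr4 and Kit was not tested. Which cells expressed Gata6, Sox7, Hhex and Ttr in CP was not tested either.

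Beside the CP value of Kit, blood and endothelial markers were high. Of 9 blood markers 8 were higher in CP than in MES (sum 8.996 to 290 RPKM) and 8 were lower in CM (sum 12.7 RPKM), among them Lyl1 (0.458, 17.1 and 0.491 RPKM) and Itga2b (0.459, 16.9 and 3.69 RPKM). Hbb-bh1, an embryonic globin gene, was at 0 in ESC, and Hba-x at 0 in ESC and MES. Of 10 endothelial markers 8 were higher and 1 lower in CP than in MES (sum 27.6 to 345 RPKM), and 5 were lower in CM (sum 128 RPKM). The gene lower in CP was Etv2 (18.1 to 3.45 RPKM), which made up most of the MES sum. Cdh5 stood at 71.3 RPKM and Tek at 27.1 RPKM in CP, and Emcn at 0 in ESC and MES. Kit was also high in ESC, where the blood sum was 3.07 RPKM and the endothelial sum 30.9 RPKM, of which 16.2 RPKM was Pecam1. The part of blood or endothelial cells in the CP value was not tested.

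Germ cell markers stood beside the ESC value of Kit. Of 6 such genes 5 were lower in MES than in ESC (sum 55.0 to 4.12 RPKM), with Dppa3 at 11.2 RPKM in ESC and at 0 in the 3 later stages and Dazl at 0 in MES. The largest part of the ESC sum was Tcfap2c at 23.9 RPKM. All 9 pluripotency markers were lower at the same step. In CP, where Kit was at 15.3 RPKM, the germ cell marker sum was 13.2 RPKM, of which Prdm1 made up 11.5 RPKM. Of 7 mast cell and melanocyte markers, 2 were in the table: Mitf (0.936, 0.319, 0.722 and 14.4 RPKM) and Pmel (3.21, 0.873, 0.919 and 0.723 RPKM). The part of germ cells, mast cells or melanocytes in the Kit values was not tested.

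Beside the CM values of the PDGF receptors, most of the listed markers of smooth muscle and fibroblasts were higher than in CP. Of 8 smooth muscle and pericyte markers 5 were higher and 1 lower in CM than in CP (sum 710.1 to 2749 RPKM), and none was at 0 at any stage. Both sums were mostly Acta2, an actin gene also expressed in young heart muscle (498 and 1944 RPKM). All 9 cardiomyocyte markers were higher at the same step, with a sum of 9493 RPKM in CM. Myh11 (2.95 and 3.08 RPKM) and Notch3 (27.6 and 20.6 RPKM) were under 2-fold. Rgs5 was the lower gene, at 25.3 RPKM in CP and 2.78 in CM. Of 7 fibroblast markers other than Pdgfra, 5 were higher and 1, Tcf21, was lower (sum 88.9 to 281 RPKM), with Col3a1 at 1.70 and 62.5 RPKM and Postn at 0.1004 and 8.73 RPKM, and Lum at 0 in ESC, MES and CP. Pdgfrb was higher and Pdgfra lower over the same step, and the part of such cells in either value was not tested. Of 5 epicardial markers 3 were in the table, and all were below 1 RPKM in CM. Wt1 had 0.147 RPKM in CP against 0.903 in CM, a log2(RPKM + 1) difference of 0.73 that understates the ratio of such low values. Upk3b had 3.28 RPKM against 0.592, and Aldh1a2 0.307 against 0.0399.

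**Figure D5:**
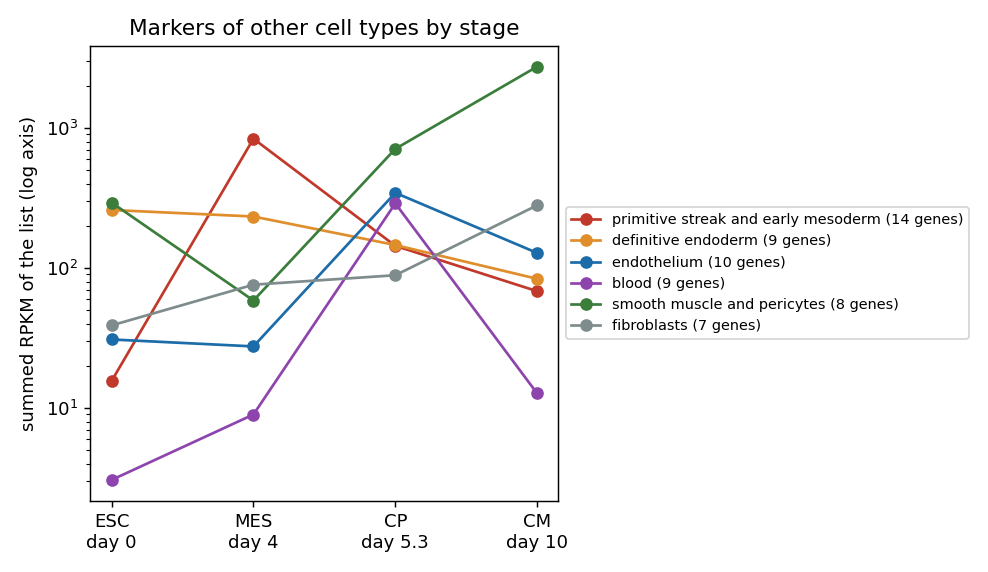
Summed RPKM of marker lists on a log axis (y) at the 4 stages (x); each point is the sum over the genes of the list that are in the table. Streak and early mesoderm markers peak in MES at 840 RPKM, blood and endothelial markers in CP at 290 and 345 RPKM, and smooth muscle and fibroblast markers in CM at 2749 and 281 RPKM. The smooth muscle sum in CM is mostly Acta2 (1944 RPKM).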

How the data were processed

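Per the submitters' processing notes, the aligner was Novoalign 2.07.00 and mm9 was the build. The counter, the annotation release and the way both libraries entered a column are each not given in the sources used here. RPKM values were deposited by the submitting authors, a single column for each stage. Every gene exceeds 1.00 RPKM at some stage, so a gene outside the table cannot be called absent. The planned limma test needed separate libraries and was not run. Differences are of log2(RPKM + 1), and a call means at least 2-fold.

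Relative depth was taken from ratios of low values that are ratios of small whole numbers, and absolute depth from GENCODE M21 exon lengths (a different build, so no coordinates were used), where 23.4% of 13177 genes lay within 0.1% of the depth used. Reads were the smallest whole numbers that fit all 4 stages (relative tolerance 5e-07). The recovery was tested on simulated data only up to a common divisor, so that test does not cover the absolute read numbers. Model lengths of the receptors came out whole within 0.001 bases. Reads of Cxcr4 were multiplied by 2 because that gave its annotated length. Whether counting used strand is unknown, so reads of overlapping or antisense genes may be mixed.

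The 5 receptors and all gene lists were chosen with earlier results of these data known. All receptors, ligands, relatives and chromosome neighbours could be named; of longer lists, up to 4 genes at least 2-fold apart with the largest difference per comparison and 2 others of highest mean, and the 3 genes most alike to each receptor. Neighbours of Aplnr, Cxcr4 and Pdgfrb, and marker genes named for being at 0 (Dazl, Lum, Msgn1, Ttr), were added after their values were seen. RefSeq tables gave promoters and gene order. Python 3.11.15, numpy 2.4.6, pandas 2.3.3 and scipy 1.17.1 were used.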

Additional observations from a re-analysis of the deposited data

How the results depend on the processing

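The counts of receptors at least 2-fold higher or lower were recomputed with pseudocounts of 0.1 and 0.5, a minimum of 4-fold, each stage scaled to a sum of 1000000, quantile normalization, and genes that reach 3 RPKM. At a minimum of 4-fold, 0 receptors were lower in MES than in ESC and 0 higher in CP than in MES, because the pseudocount of 1 brings the log2 differences of Kit, 4.31-fold and 4.09-fold by RPKM, to -1.85 and 1.78. Cxcr4 became 1 more receptor lower in CM than in CP with a pseudocount of 0.1 (-1.15) and with scaling to a common sum (-1.18). Of 60 alternative values of the 15 receptor differences 0 changed sign, and 38 lay outside the counting interval of the value reported. Over all genes, a pseudocount of 0.1 gave 2273 genes higher in MES than in ESC (1498 as reported), 1889 higher (1207) and 942 lower (529) in CP than in MES, and 2686 lower in CM than in CP (1729). Scaling to a common sum gave 1818 higher in CP and 2799 lower in CM, and moved the median of all genes from CP to CM from -0.15 to -0.29. At 4-fold, 376 and 470 genes were higher and lower in MES, 371 and 118 in CP, and 437 and 320 in CM. No paired analysis was possible because the table has no columns for separate replicates, and for the same reason no replicate could be left out. The fold change of Aplnr from ESC to MES rests on 21 reads in ESC, and its log2 difference was 6.30 as reported and 8.88 with a pseudocount of 0.1. The list of genes around Pdgfra and Kit had 3 genes 2-fold apart from ESC to MES, and 5 with that pseudocount.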
